A study of Mus musculus with 23 samples.

Results

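The genomic fragments of Erbb3, Mbp and Pmp22, 3 genes used by myelinating Schwann cells, were followed by AIMS-seq through 23 mouse libraries of 9 groups. Every fragment that touches the annotated gene or reaches into the 2000 bp before its start on mm9 was taken, which gave 34 of the 173430 fragments in the deposited count table: 10 for Erbb3, 18 for Mbp and 6 for Pmp22. The 3 genes were chosen by reads seen on their fragments in these same libraries and comparisons, so the levels and calls given for them describe the data and carry no independent support. Reads were abundant on 5 of the 34 fragments, all of them inside gene bodies. In Erbb3 the read fragment holds an exon near the 5′ end of the gene, and its level was lowest in a passage 0 culture and highest in skeletal muscle. In Pmp22 the read fragment is intronic. As a share of library reads, its level was highest in embryonic stem cells (ESC) and low in most cultured muscle precursors. The difference between ESC and muscle depended on the scaling. In the tests given below, which use another scaling, muscle against ESC had a log2 change of -0.01.

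Schwann cells ensheath the axons of peripheral nerves, and branches of these nerves run through skeletal muscle. ErbB3 is the receptor through which Schwann cells receive neuregulin from the axon. It binds neuregulin and signals together with its partner ErbB2. Myelin basic protein, encoded by Mbp, holds the cytoplasmic faces of the myelin membrane together, and the same gene also makes the longer Golli transcripts from an upstream start. PMP22 is a small membrane protein of compact peripheral myelin, and changes in its gene dosage cause inherited neuropathies. Promoters in CpG islands usually lack DNA methylation, whereas CpG sites inside gene bodies are often methylated, so a level measured inside a gene does not give its transcription.

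AIMS-seq uses a pair of enzymes that cut the same site, CCCGGG. SmaI cuts unmethylated sites and leaves blunt ends, and XmaI then opens the remaining, methylated sites with cohesive ends that take an adaptor. A fragment between neighbouring sites is therefore amplified and read when the sites at both of its ends are methylated. Levels are given as RPM, the reads on a fragment scaled to the total reads of its library. They are not percentages of methylation, and they also depend on the length of the fragment, since amplification favours some lengths.

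The ESC lines were CGR8 (129Sv), RD1 (129X1/SvJ) and E14Tg2 (129/Ola). CGR8 had 2 libraries, 1 of them labelled a technical replicate, which were summed, so that n = 3 lines. Primary mouse myoblasts (C57BL/6J, passage 8 to 10, n = 3 cultures, numbered 21, 27 and 26 in the titles) were also taken after 1, 2 and 4 days in differentiation medium as myotubes (n = 3 at each time), and cultures 26 and 27 were sampled at passage 0 (n = 2). The titles of culture 21 carry the mark wt, and those of cultures 26 and 27 give no genotype. Freshly isolated, uncultured muscle precursors (C57BL/6J) gave 1 library without injury and 1 library 3 days after CTX injury. Whole skeletal muscle came from 3 samples, muscle 1 and 2 of strain 129Sv/C57BL/6J and muscle 3 of C57BL/6J. Strain and cell type change together between the ESC lines and the cultures and cannot be told apart. Muscle is whole tissue, in which fewer methylated cells and less methylation per cell cannot be told apart. The myotube libraries come from the same cultures as the myoblasts, and passage 0 shares cultures 26 and 27 with them. Muscle 3, of a different strain, comes from another animal than muscle 1 and 2. The labels do not say whether muscle 1 and 2 are separate animals, so the spread of the muscle samples may be partly technical. Transcripts were not analysed here, so the labelled cell types could not be checked against marker expression.

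Libraries held 6237851 to 14696855 reads. Fragments of 800 bp to under 2000 bp took 18.3 to 23.9% of the reads in ESC and 12.8 to 15.1% in muscle, and the share on fragments in CpG islands ran from 0.421% in day 4 myotubes of culture 21 to 4.98% in day 1 myotubes of culture 27. The libraries of CGR8 show the technical spread at the 5 read fragments. The ratio of its technical replicate to its first library was 1.12 for the Erbb3 fragment and 1.45 for Pmp22. It was 1.96 for the 287 bp fragment of Mbp, 2.12 for its 1054 bp fragment and 0.913 for its 302 bp fragment. Across 13015 fragments with a mean of at least 5 RPM in these CGR8 libraries, the median change was 1.27-fold in either direction and the 90th percentile 4.34-fold.

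Erbb3 (ENSMUSG00000018166.8) lies on the minus strand of chromosome 10 at 128004579 to 128026708. Its read fragment is chr10:128021017-128021915, 899 bp long and 4793 bp inside the gene. It contains exon 4 of 28, 126 coding bases, and is otherwise intronic, with 11 CpG sites and no island or shore. Only the CCCGGG sites at its ends are measured. They are shown with 40 bases on each side, on the plus strand of mm9 and with the restriction site in capitals, since these are the sites whose reads varied most among the libraries. The site nearer the 3′ end of the gene spans chr10:128020974-128021059, and the site nearer its start spans chr10:128021873-128021958.
Erbb3 exon 4 fragment, left site: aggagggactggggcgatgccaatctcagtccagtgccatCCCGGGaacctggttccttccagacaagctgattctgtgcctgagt
Erbb3 exon 4 fragment, right site: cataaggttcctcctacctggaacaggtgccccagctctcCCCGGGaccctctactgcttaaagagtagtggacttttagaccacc

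Pmp22 (ENSMUSG00000018217.6) lies on the plus strand of chromosome 11 at 62942484 to 62973049. Its read fragment is chr11:62957125-62958873, 1749 bp of intron with 25 CpG sites, 10555 bp downstream of the nearest annotated transcript start. The sites at its ends are at chr11:62957082-62957167 and chr11:62958831-62958916, again with 40 bases on each side.
Pmp22 intron fragment, left site: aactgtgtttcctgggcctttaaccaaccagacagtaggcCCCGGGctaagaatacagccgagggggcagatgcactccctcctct
Pmp22 intron fragment, right site: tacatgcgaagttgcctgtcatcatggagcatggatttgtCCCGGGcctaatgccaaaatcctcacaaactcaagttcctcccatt

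The promoter of Erbb3 gave almost no reads. Upstream of its start lie fragments of 196 and 204 bp in a CpG island, which share a CCCGGG site. They are printed whole, with the sites at both ends in capitals, because they gave only 1 read each over all libraries. With their sites they span chr10:128027182-128027383 (202 bases, 20 CpG) and chr10:128027378-128027587 (210 bases, 25 CpG).
Erbb3 island fragment, nearer the start: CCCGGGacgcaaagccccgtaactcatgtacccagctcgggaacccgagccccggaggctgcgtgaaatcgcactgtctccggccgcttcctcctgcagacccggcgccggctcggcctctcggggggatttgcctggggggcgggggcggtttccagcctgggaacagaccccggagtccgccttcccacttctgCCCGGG
Erbb3 island fragment, farther from the start: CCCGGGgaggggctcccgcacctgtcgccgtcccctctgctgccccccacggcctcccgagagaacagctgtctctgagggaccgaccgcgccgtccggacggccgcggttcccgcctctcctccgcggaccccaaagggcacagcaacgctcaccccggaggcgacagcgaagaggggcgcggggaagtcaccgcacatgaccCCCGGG

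Mbp (ENSMUSG00000041607.10) lies on the plus strand of chromosome 18 at 82644538 to 82755029 and has 16 annotated transcripts, the Golli starts at its 5′ end and a further group of starts far inside it. It has 3 read fragments. The fragment chr18:82703461-82703762 (302 bp, 2 CpG) is intronic, upstream of the inner starts, and overlaps a B4 element, a SINE repeat. The fragment chr18:82726690-82727743 (1054 bp, 22 CpG) lies in untranslated sequence of the last exon of 1 transcript and in an intron of the other transcripts that span it. The fragment chr18:82744938-82745224 (287 bp, 9 CpG) holds 33 coding bases of an exon used by 7 of the 16 transcripts.

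The 5 read fragments held 116159 of the 116971 reads on the 34 fragments, 99.3%. Their means over the libraries were 213 RPM for the 287 bp and 202 RPM for the 302 bp fragment of Mbp, 47.5 RPM for Erbb3, 23.9 RPM for the 1054 bp fragment of Mbp and 9.56 RPM for Pmp22. The other 29 fragments had means of 0 to 0.622 RPM and 812 reads in all. A gap separates the sets, with Pmp22 at 9.56 RPM just inside the 5 RPM used here to call a fragment read and a 14188 bp fragment at the 3′ end of Pmp22 just outside it at 0.622 RPM.

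Length and CpG islands went with this split, as they did over the genome. Of the 34 fragments, 20 were 2000 bp or longer, and all had means under 1 RPM, as did 94.7% of 69108 such fragments in genes. All 3 under 200 bp were under 1 RPM, as were 92.8% of 11561 in genes. Of the 11 fragments of 200 bp to under 2000 bp, 4 lie in a CpG island and held 15 reads in all, and 92.5% of 7825 island fragments of this length in genes were also under 1 RPM. The 6 outside islands and shores included all 5 read fragments, where 61.1% of 8954 such fragments in genes reached 5 RPM.

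At the promoters, from 2000 bp before to 500 bp after a start, the 15 fragments had means of at most 0.402 RPM, and 11 fragments in islands had the same upper value. Both maxima belong to a fragment of 36038 bp that reaches far upstream of Pmp22. No read was found in any library on a 94 bp fragment in the first exon of Erbb3 or on fragments of 418 and 127 bp in the island of Pmp22. With 235463533 reads in all, a count of 0 allows up to 0.0127 RPM (3 reads), counting error only. Since fragments under 200 bp were rarely read anywhere, 0 reads on those of 94 and 127 bp do not measure unmethylated sites. The island fragments of 204, 418, 585 and 831 bp are of lengths that were read elsewhere.

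**Figure D1:**
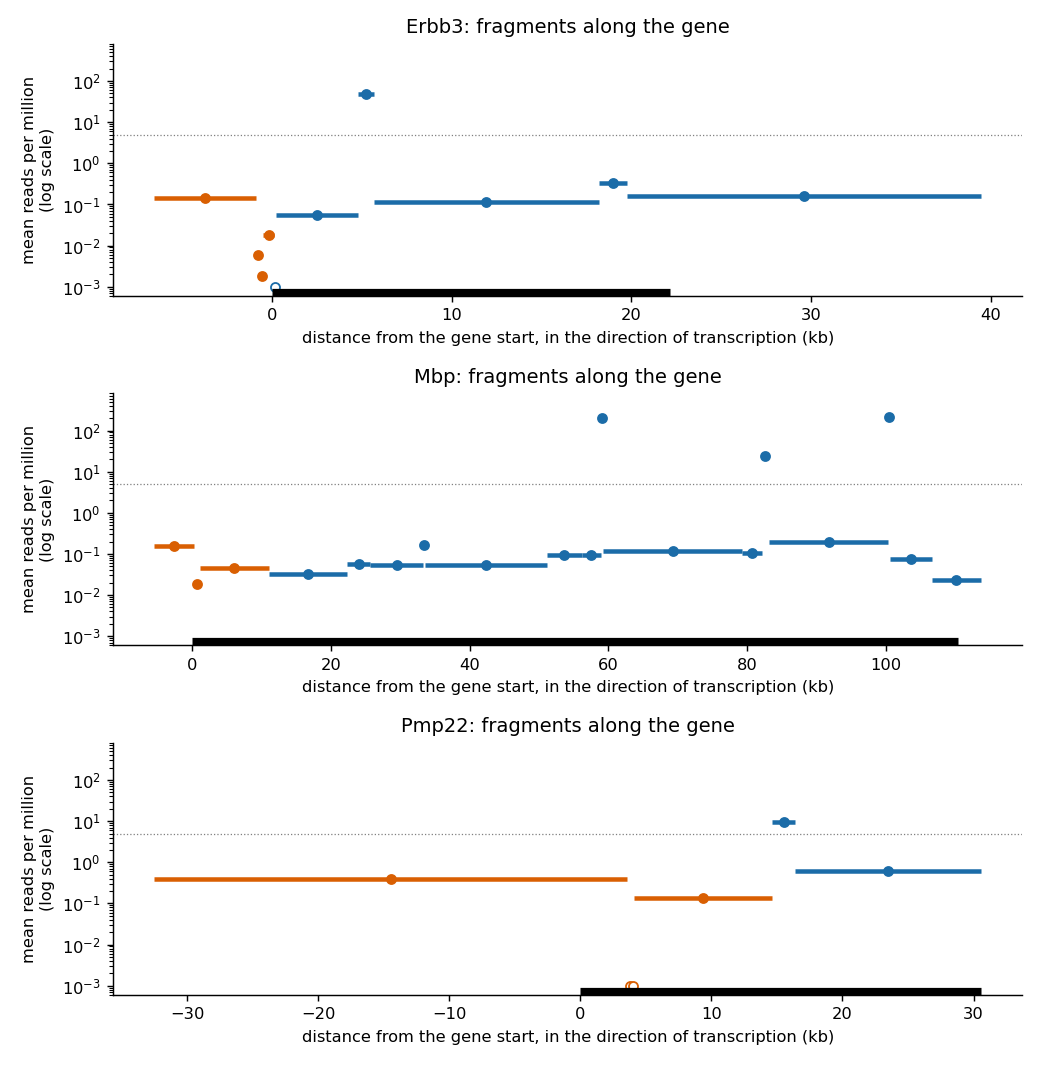
Mean level over 22 libraries (CGR8 counted once) of each of the 34 fragments, in RPM on a log scale, against its distance from the gene start in kb; bars span the fragment, points mark its middle, the black bar is the gene, orange marks fragments in a CpG island, open points had 0 reads and are drawn at the bottom, and the dotted line is 5 RPM. The 5 fragments above the line all lie inside the genes and outside islands, with means of 9.56 to 213 RPM, and the other 29 stand at 0.622 RPM or less.

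The Erbb3 exon 4 fragment was read at 17.3 RPM in CGR8, 13.8 RPM in RD1 and 8.00 RPM in E14Tg2. In muscle 1, 2 and 3 its level was 130.3, 204 and 73.5 RPM. The lowest muscle sample lay above the highest ESC line, and the means were 136 ± 65.7 RPM (SD, n = 3) and 13.0 ± 4.72 RPM (SD, n = 3), a ratio of 10.4. In the myoblasts the level was 5.98 RPM in culture 21, 60.1 RPM in culture 27 and 46.7 RPM in culture 26. Thus culture 21 stood below all ESC lines and the other cultures above them.

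The same order of cultures held in the myotubes. Culture 21 gave 4.67, 3.03 and 4.73 RPM at days 1, 2 and 4, culture 26 gave 25.96, 35.3 and 40.7 RPM, and culture 27 gave 113, 63.5 and 100.3 RPM. At every time culture 27 was the highest and culture 21 the lowest, and culture 27 overlapped the muscle samples. At passage 0, culture 26 was at 24.2 RPM and culture 27 at 1.64 RPM, the lowest level in any library. Freshly isolated precursors were at 31.3 RPM without injury (95% exact interval 27.03 to 35.97 RPM) and 36.5 RPM after injury (32.4 to 41.0 RPM), intervals that overlap and cover counting error only. PCR reads without molecular identifiers are not independent molecules, so these intervals are too narrow.

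By group mean, the Erbb3 order ran from muscle (136 RPM) through day 4 myotubes (48.6 RPM), day 1 myotubes (47.9 RPM), myoblasts (37.6 RPM), injured precursors, day 2 myotubes (33.9 RPM) and uninjured precursors to ESC (13.0 RPM) and passage 0 (12.9 RPM). All neighbours in this order overlapped in range except uninjured precursors, a single library, and ESC.

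The Pmp22 intron fragment was read at 21.9, 31.5 and 30.3 RPM in CGR8, RD1 and E14Tg2. Muscle 1, 2 and 3 had 13.3, 19.6 and 12.7 RPM, all below the ESC lines. The myoblasts had 0.725 RPM in culture 21, 8.58 RPM in culture 27 and 3.38 RPM in culture 26, all below the muscle samples, so the 3 groups did not overlap. Mean levels were 27.9 ± 5.24 RPM in ESC, 15.2 ± 3.82 RPM in muscle and 4.23 ± 4.00 RPM in myoblasts (SD, n = 3 each).

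In the myotubes, culture 21 stayed low for Pmp22, with 1.19, 0.344 and 0.710 RPM at days 1, 2 and 4. Culture 26 had 1.77, 3.32 and 2.86 RPM, and culture 27 had 15.9, 4.16 and 16.9 RPM. The day 1 and day 4 libraries of culture 27 were therefore within the range of muscle, and all others were below it. At passage 0, culture 26 had 3.10 RPM and culture 27 had 0.328 RPM. The uninjured precursors had 4.65 RPM (3.11 to 6.68 RPM) and the injured ones 13.0 RPM (10.6 to 15.8 RPM). These 95% exact intervals do not overlap, but each condition is 1 library and the difference has no replicate check. The means fell from ESC through muscle, injured precursors, day 4 (6.82 RPM) and day 1 myotubes (6.29 RPM), uninjured precursors, myoblasts and day 2 myotubes (2.61 RPM) to passage 0 (1.71 RPM), and only ESC and muscle were neighbours without overlap.

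The coding-exon fragment of Mbp (287 bp) was the most abundant of the 34. It was read at 317, 433 and 366 RPM in CGR8, RD1 and E14Tg2 and at 403, 634 and 293 RPM in muscle 1, 2 and 3, so these groups overlapped. The myoblasts of cultures 21, 27 and 26 had 76.8, 183 and 192 RPM, below every ESC line and every muscle sample. The means were 372 ± 58.1 RPM in ESC, 151 ± 64.0 RPM in myoblasts and 443 ± 174 RPM in muscle (SD, n = 3 each).

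Among the myotubes, the same fragment had 80.3, 52.9 and 40.1 RPM in culture 21 at days 1, 2 and 4, 89.4, 84.1 and 121 RPM in culture 26, and 240.1, 175 and 258 RPM in culture 27. All were below the ESC and muscle samples. At passage 0, culture 26 had 161 RPM and culture 27 had 47.8 RPM. Uninjured precursors were at 314 RPM (301 to 329 RPM) and injured ones at 129 RPM (121 to 137 RPM), so here the uninjured library was the higher, opposite to Pmp22. In the order of group means, muscle stood above ESC, ESC above uninjured precursors, and the remaining groups lay between 151 and 104 RPM. No overlap was seen between ESC and uninjured precursors or between these and the myoblasts, and all other neighbours overlapped.

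The other fragments of Mbp had their own patterns. The intronic B4 fragment (302 bp) was at 276, 206 and 204 RPM in CGR8, RD1 and E14Tg2 and at 110.3, 81.3 and 109 RPM in muscle 1, 2 and 3, lower in muscle without overlap. The myoblasts of cultures 21, 27 and 26 had 198, 131 and 357 RPM, around the ESC lines on both sides. Culture 26 was the highest at every myotube time, at 347, 320 and 359 RPM, while cultures 21 and 27 lay between 151 and 183 RPM. Passage 0 gave 240.4 RPM in culture 26 and 130.2 RPM in culture 27, and the uninjured and injured precursors gave 258 and 108 RPM. Muscle (mean 100.1 ± 16.3 RPM, SD, n = 3) and injured precursors were the lowest groups, and the other means lay between 185 and 258 RPM.

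The 1054 bp fragment of Mbp was at 33.7, 51.4 and 40.4 RPM in CGR8, RD1 and E14Tg2 and at 35.9, 37.6 and 25.6 RPM in muscle 1, 2 and 3, with overlap. Myoblasts of cultures 21, 27 and 26 had 8.60, 14.1 and 36.7 RPM. In the myotubes culture 26 kept to 28.5 to 39.8 RPM, culture 27 ranged from 8.08 to 31.8 RPM and culture 21 from 3.24 to 9.84 RPM. Passage 0 was at 8.92 RPM in culture 26 and 2.84 RPM in culture 27, uninjured precursors were at 9.62 RPM and injured ones at 22.6 RPM. In this fragment, as in Erbb3 and Pmp22, passage 0 of culture 27 was the lowest library.

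**Figure D2:**
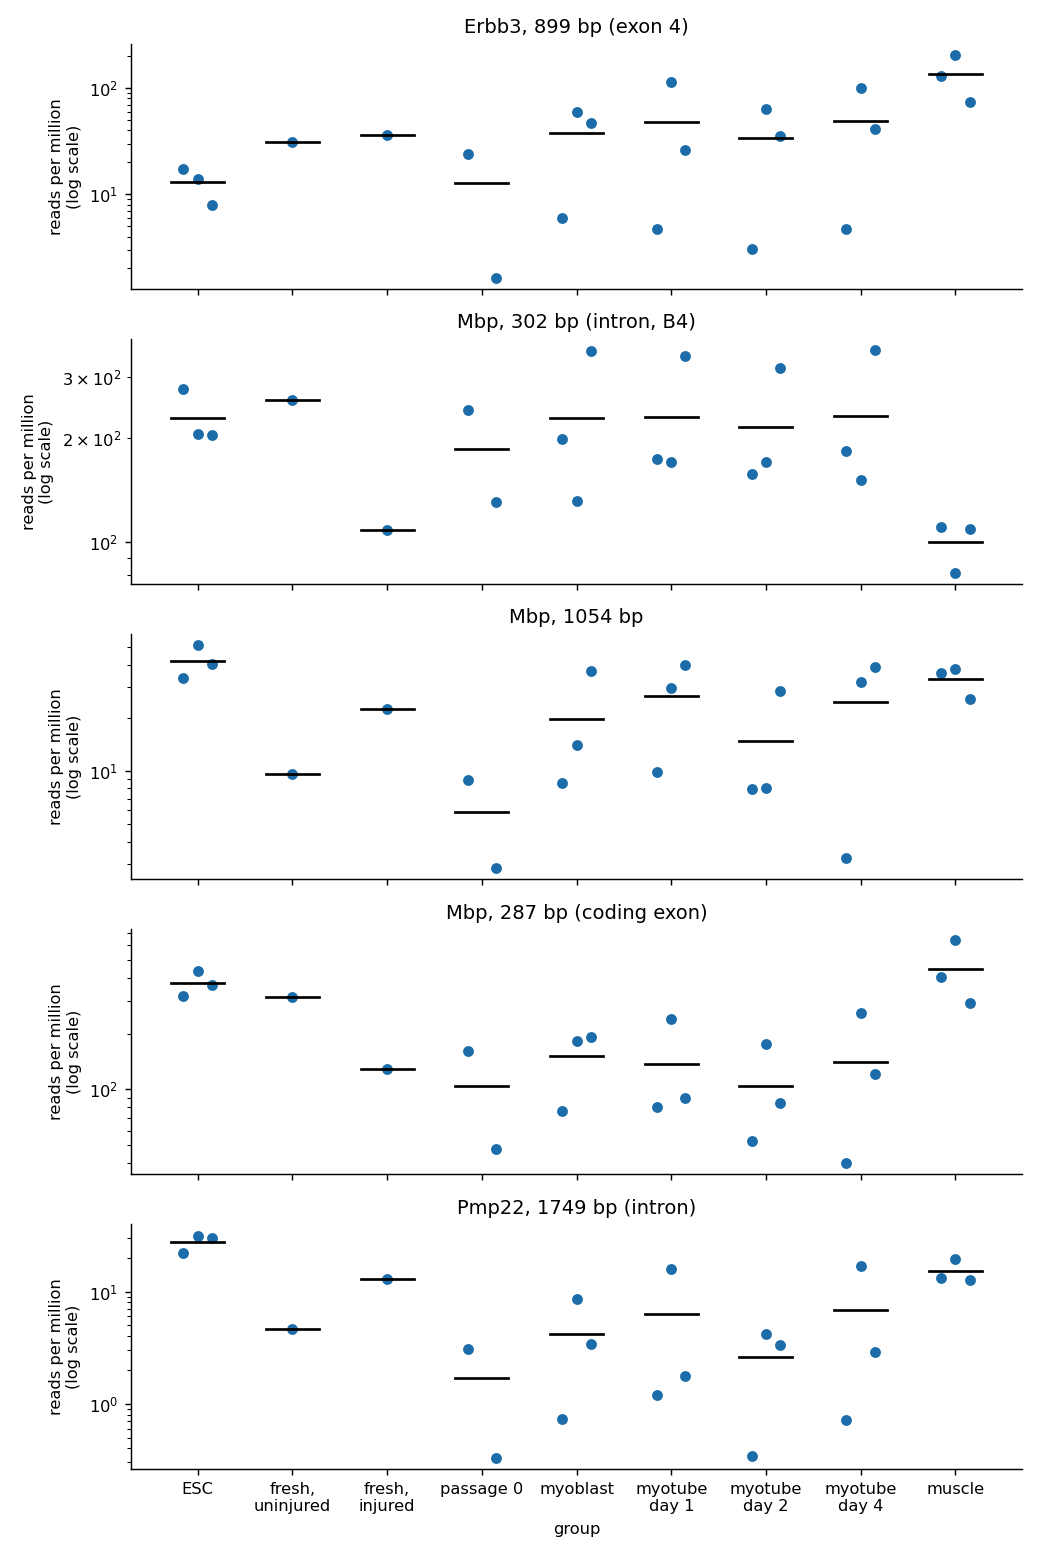
Level of the 5 read fragments in every library, in RPM on a log scale, by group; points are libraries in order of replicate and lines are group means. Erbb3 in muscle (73.5 to 204 RPM) lies above ESC (8.00 to 17.3 RPM), and Pmp22 in ESC (21.9 to 31.5 RPM) lies above muscle (12.7 to 19.6 RPM) and myoblasts (0.725 to 8.58 RPM).

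Differences between groups were read from an edgeR quasi-likelihood fit over all fragments of the libraries compared, with TMM scaling and Benjamini-Hochberg adjustment over all fragments tested. Calls are those with an adjusted p under 0.05. The comparisons share groups, so each is given by its own values. The scaling matters when muscle is one side: with TMM the median log2 change over all fragments was -0.34 in muscle against ESC and -0.13 in muscle against myoblasts, and with library totals, the scale of RPM, it was -1.17 and -0.67. Among called fragments 5616 were higher and 7959 lower in muscle than in ESC with TMM, against 3643 and 11063 with library totals. Against myoblasts, 2779 were higher and 3530 lower with TMM, and 1283 and 4183 with library totals.

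Between myoblasts and ESC, 5 of the 34 fragments had enough reads to be tested and 1 was called, lower in myoblasts, where 11.7% of all 25152 fragments tested were called lower, 8.22% higher and 19.9% in either direction. The called fragment was the Pmp22 intron fragment, at -2.69 ± 0.68 (log2 ± SE, edgeR adjusted p = 0.0204). The Mbp coding-exon fragment had -1.15 ± 0.43 (edgeR adjusted p = 0.0945) and the Erbb3 exon 4 fragment 1.52 ± 0.71 (edgeR adjusted p = 0.169). The median over the 5 was -0.87, beside -0.08 over all fragments tested. Without any of the 3 ESC lines in turn the Pmp22 call was lost (edgeR adjusted p = 0.0656 without CGR8, 0.0504 without RD1, 0.0646 without E14Tg2), as it was without culture 26 (0.103), with log2 changes from -2.47 to -2.73. Without culture 21 the Erbb3 fragment was called higher in myoblasts (log2 2.11, edgeR adjusted p = 0.0115), in a fit that called 3922 of 28173 fragments higher. In the authors' deposited table of ESC and myoblasts the log2 values were -2.71 for Pmp22 (adjusted p 2.07e-11 pooled, 3.26e-05 per condition), -1.39 for the Mbp coding exon (0.00105 and 0.0044) and 1.30 for Erbb3 (0.306 and 0.00696).

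Between muscle and ESC, 2 of 5 tested fragments were called, both higher in muscle, where 24.4% of 22980 fragments were called higher, 34.6% lower and 59.1% in either direction. The Erbb3 fragment stood at log2 4.21 ± 0.59 (SE, edgeR adjusted p = 0.000304). The Mbp coding-exon fragment had 1.13 ± 0.41 (edgeR adjusted p = 0.0369), and Pmp22 had -0.01 ± 0.38 (edgeR adjusted p = 0.987). Erbb3 kept its call in every alternative run, at log2 3.35 to 4.79. The Mbp call depended on the scale, with log2 0.23 (edgeR adjusted p = 0.544) on library totals and 0.67 (0.159) on fragments under 2000 bp alone, and was lost without CGR8 (log2 1.28, 0.053), RD1 (1.26, 0.0712) or E14Tg2 (1.14, 0.123) and without muscle 1 (1.32, 0.0605) or muscle 2 (0.81, 0.113).

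On library totals the Mbp B4 fragment was called lower in muscle (log2 -1.22, edgeR adjusted p = 0.00453), where TMM gave -0.41 (0.342), and Pmp22 had -0.90 (0.0782). These are the RPM differences given above, in which B4 and Pmp22 were lower in muscle in every sample. In that fit on library totals the median log2 change over all fragments was -1.17, near both values. It called 11063 of 22980 fragments lower. The authors' deposited table, made with DESeq, gives an adjusted p from a pooled dispersion and another from a dispersion per condition. In it the log2 ratio of muscle to ESC was 3.11 for Erbb3 (adjusted p 7.08e-05 pooled, 1.74e-15 per condition), -1.39 for the B4 fragment (6.27e-10 and 1.03e-12), -0.94 for Pmp22 (0.00209 and 0.00128) and 0.13 for the Mbp coding-exon fragment (0.941 and 0.889). For Pmp22, B4 and the Mbp coding exon, the direction or the call between muscle and ESC thus moved with the scale, and for Erbb3 it did not. The 2 muscle samples of mixed strain had more Erbb3 signal than the C57BL/6J sample, and their share of reads on island fragments was also higher (3.55 and 4.78%, against 1.65%). The part of strain in these levels was not tested.

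Between muscle and myoblasts, 3 of 5 tested fragments were called, all higher in muscle, where 13.7% of 20274 fragments were called higher, 17.4% lower and 31.1% in either direction. Erbb3 stood at log2 2.59 ± 0.79 (SE, edgeR adjusted p = 0.0355), the Mbp coding-exon fragment 2.20 ± 0.54 (0.0184) and Pmp22 2.55 ± 0.76 (0.0331). Erbb3 ranges did not overlap, with muscle from 73.5 RPM and myoblasts to 60.1 RPM. All 3 calls were lost without muscle 1 (edgeR adjusted p = 0.0749 for Erbb3, 0.0657 for Mbp and 0.0704 for Pmp22) or muscle 2 (0.115, 0.0759 and 0.0996), fits in which edgeR called 0 of all 23111 and 0 of all 23481 fragments. The log2 changes there were 2.81 and 2.14 for Erbb3, 2.42 and 1.81 for Mbp and 2.84 and 2.30 for Pmp22. Without culture 27, Erbb3 (0.071) and Mbp (0.0537) lost theirs, and without culture 26, Erbb3 (0.0791) and Pmp22 (0.094). On library totals Mbp alone stayed called (log2 1.54, edgeR adjusted p = 0.0394), with Erbb3 at 1.84 (0.0933) and Pmp22 at 1.83 (0.123). In the authors' deposited table of muscle and myoblasts the log2 values were 1.80 for Erbb3 (adjusted p 0.047 pooled, 0.0667 per condition), 1.52 for the Mbp coding exon (0.0217 and 0.0107), 1.77 for Pmp22 (0.0026 and 0.00479) and -1.23 for the B4 fragment (0.134 and 1.6e-06). The B4 fragment was thus called with the dispersion per condition alone and Erbb3 with the pooled one alone.

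**Figure D3:**
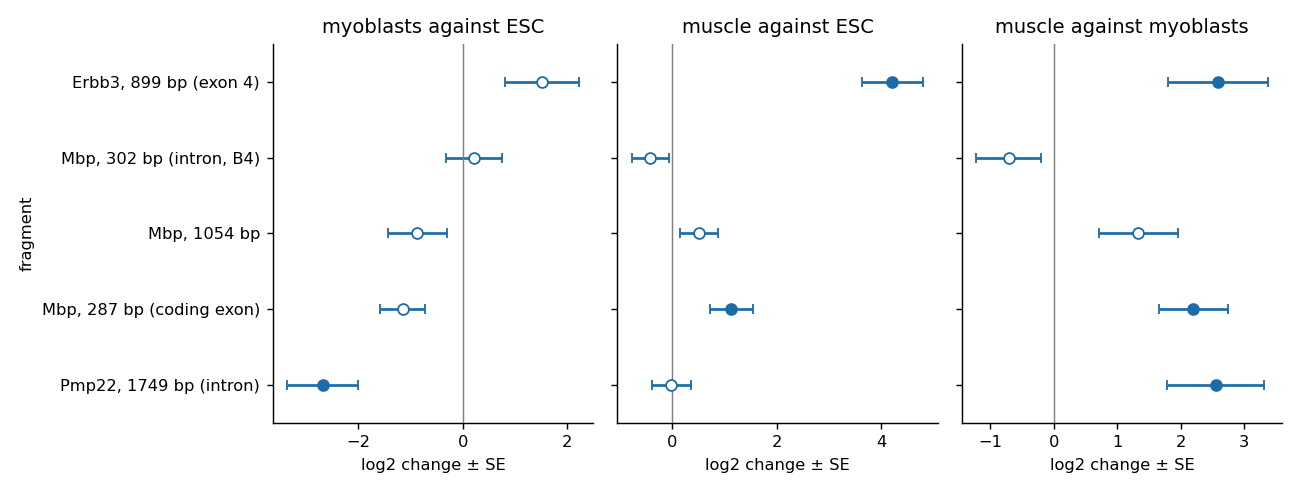
Log2 change of the 5 read fragments with its standard error (edgeR, TMM scaling) in myoblasts against ESC, muscle against ESC and muscle against myoblasts (n = 3 libraries or lines a group); filled points have an adjusted p under 0.05. Erbb3 is at 4.21 and 2.59 in the comparisons with muscle, and Pmp22 moves from -2.69 in myoblasts against ESC to -0.01 in muscle against ESC.

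No member was called by edgeR in the other 4 comparisons. In day 4 myotubes against ESC, 0 of 6 tested fragments were called where 11.3% of 25497 were (5.42% higher and 5.93% lower), with Erbb3 at 2.12 ± 0.89 (edgeR adjusted p = 0.198), Pmp22 at -1.71 ± 0.92 (0.302) and the Mbp coding exon at -1.05 ± 0.60 (0.329). The sixth was a 1595 bp fragment of Erbb3 exons and introns in a shore, at 0.716 ± 0.551 RPM in ESC and 0.517 ± 0.640 RPM in day 4 myotubes (SD, n = 3 each). Without culture 21 Erbb3 was called higher in this comparison, in a fit that called 4082 of 28274 fragments higher. Without culture 27 Pmp22 was called lower, in a fit that called 2215 of 27168 fragments lower. In the authors' deposited table of ESC and day 4 myotubes, Pmp22 was at log2 -2.05 (adjusted p 0.000101 pooled, 0.00124 per condition), the Mbp coding exon at -1.50 (0.00486 and 0.0219) and Erbb3 at 1.66 (0.427 and 0.000359).

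Muscle against day 4 myotubes called 0 of the 5 members tested and 0 of all 19353 fragments in edgeR, with 4613 at an unadjusted p under 0.05 and 2231 calls by DESeq2. The Mbp coding exon stood at log2 2.23 ± 0.70 (edgeR adjusted p = 0.143) and was called by DESeq2. In the authors' deposited table of these groups the Mbp coding exon was at log2 1.63 (adjusted p 0.0622 pooled, 0.0688 per condition) and the B4 fragment at -1.23 (0.185 and 1.58e-06). Day 4 myotubes against myoblasts gave 0 of 5 members and 0 of 22438 fragments in edgeR, with 83 at an unadjusted p under 0.05 and 0 by DESeq2. In this fit, which does not pair libraries of a culture, the member changes were small against their errors. They ran from -0.04 ± 0.64 for the Mbp coding exon to 0.81 ± 1.05 for Pmp22. With the culture as a replicate block, edgeR called 39 of the 22438 fragments higher and 0 lower, and no member.

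In myoblasts against passage 0 cells, 0 of 6 members and 0 of 23419 fragments were called by edgeR, with 665 at an unadjusted p under 0.05 and 3 by DESeq2. The log2 change of Erbb3 was 1.36 ± 1.08 (edgeR adjusted p = 0.978). It was 3.86 without passage 0 of culture 26 (0.925) and 0.48 without passage 0 of culture 27 (1.00), so its size rests on which passage 0 library is kept. With the culture as a replicate block it was 2.55 ± 0.69 (edgeR adjusted p = 0.0137), in a fit that called 821 of the 23419 fragments higher and 175 lower. Both cultures sampled at both passages had the higher level in myoblasts, 60.1 against 1.64 RPM in culture 27 and 46.7 against 24.2 RPM in culture 26. The 14188 bp fragment of Pmp22, its 3′ end, passed the filter here alone, at 1.16 ± 0.556 RPM at passage 0 (n = 2) and 0.664 ± 0.694 RPM in myoblasts (n = 3). Its highest levels were in culture 21, to 2.14 RPM at day 2, where the intron fragment of Pmp22 was at its lowest for a myotube library.

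The cultures differed more than the stages. Over the 12 libraries of 3 cultures and 4 stages (myoblasts and the myotube days), culture took 96.1% of the variance of log2(RPM + 1) for Erbb3 and stage 1.04%. Culture took 94.6% for the Mbp B4 fragment, 84.6% for Pmp22, 78.6% for the Mbp coding exon and 73.2% for the 1054 bp fragment. The median over the 13633 fragments with a mean of at least 5 RPM in these 12 libraries was 59.3% for culture and 11.7% for stage. The members stood at percentiles 95.9, 93.1, 75.3, 68.2 and 62.7 of that distribution, in the same order. Pmp22 had a lower mean in these libraries, so it is set against a distribution that does not include it. These shares describe 3 cultures and carry no test.

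For Erbb3 the mean over the 4 stages was 4.60 ± 1.21 RPM in culture 21, 37.2 ± 8.81 RPM in culture 26 and 84.2 ± 26.4 RPM in culture 27 (SD over 4 libraries of each culture). Pmp22 kept this order, at 0.742 ± 0.346, 2.83 ± 0.748 and 11.4 ± 6.08 RPM, as did the Mbp coding exon, at 62.5 ± 19.3, 121 ± 49.5 and 214 ± 41.2 RPM. The other Mbp fragments were highest in culture 26, at 346 ± 18.3 RPM for B4 and 35.9 ± 5.12 RPM for the 1054 bp fragment. From passage 0 to the mean of the later stages, culture 27 differed 51.4-fold for Erbb3, 34.8-fold for Pmp22 and 4.47-fold for the Mbp coding exon. Its passage 0 level is from 1 library, with 15 reads for Erbb3 and 3 for Pmp22, so the size of these folds is imprecise. Culture 26 differed 1.54-fold, 0.913-fold and 0.757-fold.

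**Figure D4:**
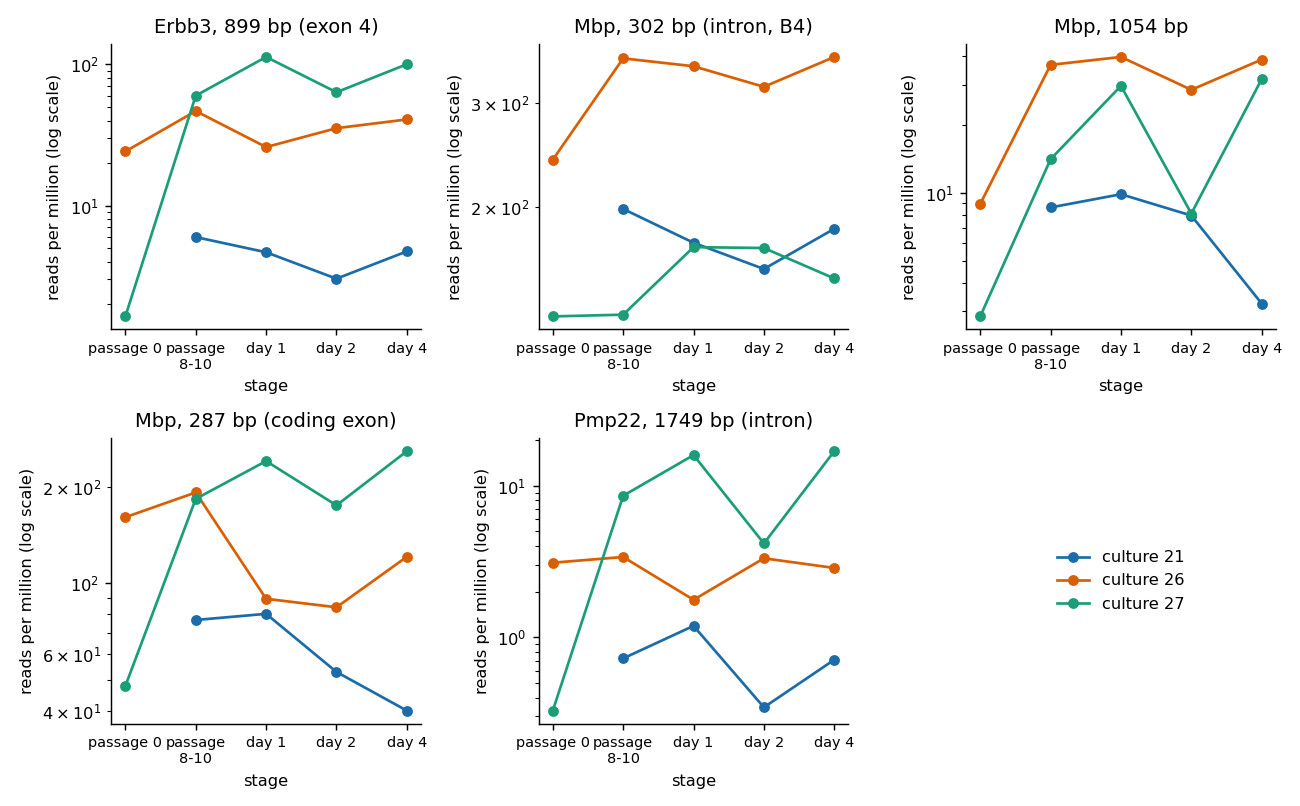
Level of the 5 read fragments, in RPM on a log scale, by stage in cultures 21, 26 and 27; each point is 1 library and lines join libraries of a culture, with passage 0 sampled in cultures 26 and 27 only. For Erbb3 and Pmp22 culture 21 is the lowest at every later stage, and culture 27 is at 1.64 RPM and 0.328 RPM at passage 0 and at 60.1 RPM and 8.58 RPM at passage 8 to 10.

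The share of reads on CpG island fragments, a property of each whole library, moved with the same cultures. It was 0.421 to 0.632% in the 4 later libraries of culture 21, 0.847 to 1.39% in those of culture 26 and 1.62 to 4.98% in those of culture 27. At passage 0 it was 0.793% in culture 26 and 0.457% in culture 27. The day 1 and day 4 libraries of culture 27 had 4.98 and 4.78%, and these were also its highest libraries for Erbb3 (113 and 100.3 RPM) and Pmp22 (15.9 and 16.9 RPM). Muscle had 1.65 to 4.78% and ESC 0.780 to 0.973%. In RPM, ESC stands apart for Pmp22, with a higher level than any other group at a low island share, and not for Erbb3. No member in an island contributed, as these held 245 reads in all. The part of this library-wide difference in the member levels was not tested.

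**Figure D5:**
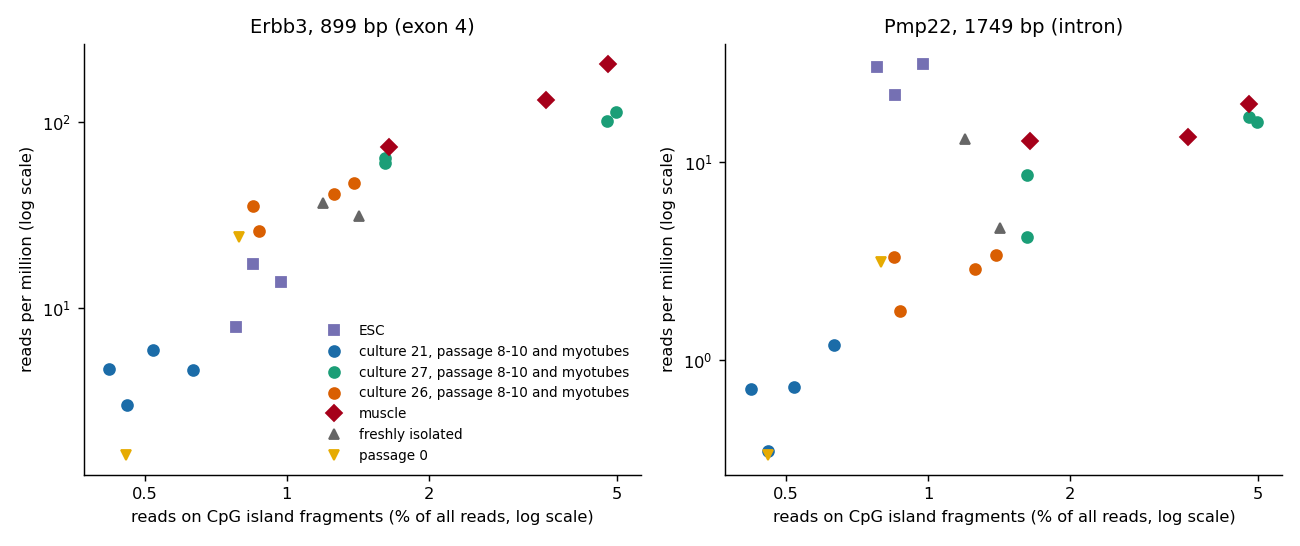
Level of the Erbb3 exon 4 fragment and the Pmp22 intron fragment (RPM, log scale) against the share of all reads on CpG island fragments (percent, log scale), with 1 point for each library and CGR8 counted once. Libraries of culture 21 and passage 0 of culture 27 are lowest on both axes for Erbb3 and muscle and culture 27 highest, while the ESC lines stand at 21.9 to 31.5 RPM for Pmp22 with island shares under 1%.

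The read members were unlike in sequence. CpG density was 1.22 per 100 bp in the Erbb3 fragment, 1.43 in Pmp22, and 0.662, 2.09 and 3.14 in the 302, 1054 and 287 bp fragments of Mbp, beside a median of 1.30 over 5467 read fragments of the same class in genes (200 bp to under 2000 bp, outside islands and shores). Over the 9 group means of log2(RPM + 1), Pearson's r between members was highest for the 1054 bp fragment of Mbp and Pmp22 (0.851), followed by the Mbp coding exon and Pmp22 (0.682). The B4 fragment of Mbp had negative r with each of the other members (-0.174 to -0.483), including the other fragments of its own gene. Erbb3 and Pmp22 had an r of 0.188. Groups that share cultures are not independent points, and no test was made.

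Among 6563 read fragments of 200 bp to under 2000 bp in genes, those most like the Erbb3 fragment over the 9 group means were in Rhebl1 (Pearson's r 0.994), N4bp2l1 (0.991) and in a region shared by Flt3l and Rpl13a (0.989). Those most like the Pmp22 fragment were in Elmo2 (0.994), Deptor (0.989) and Micall2 (0.988). Those most like the Mbp coding exon were in Tmem131 (0.978), Crhr1 (0.966) and Il21r (0.954). These values only rank the 6563 fragments over 9 groups and carry no test.

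Related genes were read from lists chosen for their roles, and their fragments moved in both directions. The ErbB and neuregulin list held the other ErbB receptor genes (Egfr, Erbb2 and Erbb4) and the neuregulin genes (Nrg1 to Nrg4). In it, 4 of 14 tested fragments were higher and 6 lower in muscle than in ESC. Their median log2 change was -0.50, beside -0.34 over all fragments. In myoblasts against ESC 0 were higher and 3 lower of 13, and in muscle against myoblasts 2 were higher and 2 lower of 11. Over all fragments tested 24.4% were called higher and 34.6% lower in muscle against ESC, 8.22% and 11.7% in myoblasts against ESC, and 13.7% and 17.4% in muscle against myoblasts, and the counts of the lists that follow stand beside these shares. A fragment of Erbb4 in a CpG shore (chr1:69152411-69153042) was at 4.70 RPM in ESC, 23.5 RPM in myoblasts and 247 RPM in muscle, with log2 changes of 6.68 ± 0.84 against ESC (edgeR adjusted p = 0.000164) and 4.18 ± 1.04 against myoblasts (0.0191). A fragment of Egfr fell by 3.10 on the log2 scale in muscle against ESC (SE 0.50, edgeR adjusted p = 0.000676), and a fragment of Nrg2 fell by 1.94 in muscle against myoblasts (SE 0.51, 0.022). A long Erbb4 fragment of 22059 bp fell by 4.27 in myoblasts against ESC (SE 0.92, 0.00959). It had 129 reads in ESC and 4 in myoblasts, so it was tested through its reads in ESC. Such a fragment is likely to be called lower by the way it was kept.

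Fragments of other myelin genes were few. Of the 59 fragments of 15 genes in the list of myelin proteins and lipids, 2 could be tested. Both were lower in myoblasts than in ESC (median log2 -2.93, beside -0.08 over all fragments). The fragment of Fa2h, which encodes a fatty acid hydroxylase of myelin lipids, was at 106 RPM in ESC, 14.3 RPM in myoblasts and 92.8 RPM in muscle, the same order of myoblasts below both others as the Mbp coding exon. Its log2 change was -2.84 ± 0.59 in myoblasts against ESC (edgeR adjusted p = 0.00748) and 3.43 ± 0.75 in muscle against myoblasts (0.014), and it was the 1 fragment of this list called in the latter. The fragment of Cldn11, a tight junction claudin of myelin, fell by 1.83 in muscle against ESC (SE 0.38, edgeR adjusted p = 0.00257).

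Of the Schwann cell transcription factors, 2 of 49 fragments could be tested in muscle against ESC and both were higher, against 24.4% of all fragments called higher. In myoblasts against ESC 1 fragment of this list could be tested, so at least 1 of these 2 was tested through its reads in muscle. Such a fragment is likely to be called higher by the way it was kept, so the count does not measure an excess over that share. The fragment with the smaller adjusted p lies in the CpG island of Pou3f1, a factor of promyelinating Schwann cells, at 2.46 RPM in ESC, 5.53 RPM in myoblasts and 20.9 RPM in muscle (log2 4.02 ± 0.64, edgeR adjusted p = 0.000617). No fragment of this list was called in myoblasts against ESC (0 of 1) or in muscle against myoblasts (0 of 2).

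Of the genes for Schwann cell surface, axon contact and signals, 4 of 21 tested fragments were higher and 7 lower in muscle than in ESC, 2 higher and 3 lower of 23 in myoblasts than in ESC, and 3 higher and 1 lower of 15 in muscle than in myoblasts. A 477 bp fragment of Nfasc, the neurofascin gene, was at 1.39 RPM in ESC, 232 RPM in myoblasts and 782 RPM in muscle, with log2 changes of 7.58 ± 0.80 in myoblasts (edgeR adjusted p = 0.000206) and 10.00 ± 0.79 in muscle (1.28e-05) against ESC. Its 31 bp neighbour was called higher in muscle than in myoblasts (log2 3.09 ± 0.65, 0.0133). A fragment of Ncam1 fell by 2.72 in muscle against myoblasts (SE 0.55, 0.0128). A 2500 bp fragment of Gpr126, an adhesion receptor needed for myelination, was called lower in both comparisons with ESC. It had 245 reads in ESC, 11 in myoblasts, where it fell by 3.83 (SE 0.60, edgeR adjusted p = 0.00159), and 0 in muscle. It was thus tested through its reads in ESC and is likely to be called lower by the way it was kept.

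In the family of Pmp22 (Emp1, Emp2, Emp3 and Lim2), 0 were higher and 1 lower of 3 tested in muscle against ESC, 0 and 1 of 5 in myoblasts against ESC, and 0 and 1 of 3 in muscle against myoblasts. A fragment of 6951 bp at Emp3 had 2963 reads in ESC and 4 each in myoblasts and muscle, and its log2 change against ESC was -8.52 and -8.05 (SE 0.91 and 0.72, edgeR adjusted p = 0.000214 and 2.34e-05). A fragment of Emp2 fell by 2.82 in muscle against myoblasts (SE 0.79, 0.0276), with 57 reads in myoblasts and 6 in muscle. The Emp3 fragment was tested through its reads in ESC and the Emp2 fragment through its reads in myoblasts. Such fragments are likely to be called lower by the way they were kept, so these counts do not measure an excess. These Emp2 and Emp3 fragments, the Gpr126 fragment and the long Erbb4 fragment are 2000 bp or longer. This class took 10.6 to 12.1% of reads in ESC, 3.88 to 6.37% in myoblasts and 1.98 to 2.60% in muscle.

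Lists of other cell types that whole muscle holds were read in the same way for muscle against ESC. Fragments of muscle fibre genes (2 higher and 3 lower of 10), endothelial genes (4 and 4 of 11), blood genes (3 and 2 of 9) and fibroblast genes (1 and 1 of 2) moved in both directions, and the 3 tested fragments of the pluripotency genes, of 7, were all higher. These counts stand beside 24.4% called higher and 34.6% called lower over all fragments. Of the pluripotency fragments 2 could be tested in myoblasts against ESC, so at least 1 was tested here through its reads in muscle. Such a fragment is likely to be called higher by the way it was kept. The part of cell composition in the member levels was not tested.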

How the data were processed

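AIMS-seq libraries of genomic DNA were sequenced on an Illumina GA2 and mapped to mm9, per the labels' protocols; Bowtie 0.11.3 and DESeq are named in the submitters' processing notes. The authors deposited raw read counts per SmaI/XmaI fragment and library, and DESeq tables with log2 ratios and p-values, per the file headers. Fragments annotated to CpG islands, shores and repeats are the authors'. All 173430 fragments began and ended at CCCGGG in the mm9 sequence (100%). Another 184 deposited columns of per-sample values were not used.

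Genes came from GENCODE M1 on mm9. The members, the gene lists and the tests were chosen with earlier results of these data known. RPM is counts divided by all reads of the library. Counts were tested with edgeR 4.0.16 (R 4.3.3, TMM, filterByExpr with a minimum count of 10, 2-sided), on the 2 groups compared, in the 7 comparisons the authors made; SE is the log2 change over the root of F. Tests were checked on simulated data. Depth was 6237851 to 14696855 reads a library, and few libraries a group limit the precision more than counting does. P-values set a group difference against the spread between these libraries, which are lines for ESC, cultures for myoblasts and tissue samples for muscle.

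Values and calls are given for each member that passed the filter in any comparison, for each gene's most-read fragment in the 3 comparisons among ESC, myoblasts and muscle, for the higher and the lower call of smallest adjusted p in each Schwann list, and for the 3 gene fragments whose group means are most like those of each gene's most-read fragment. Lists of muscle fibre, endothelial, blood, fibroblast and pluripotency genes are given as counts. Alternatives were DESeq2 1.42.0, other scalings, no filter, fragments under 2000 bp, all groups in a fit, CGR8 libraries apart, each library left out, and a replicate block. Titles give myoblasts and myotubes the same culture, and day 4 myotubes and myoblasts of a culture deviated together (r 0.865, 0.683 and 0.740). Myoblasts and passage 0 share cultures 27 (r -0.0516) and 26 (0.460). Day 4 myotubes and ESC lines share only a replicate number, with r of 0.424, 0.239 and 0.239. The block left the member calls in these pairs of groups as they were, except for Erbb3 against passage 0. Over all fragments it did change the calls. They went from 0 to 39 in day 4 myotubes against myoblasts and from 0 to 996 in myoblasts against passage 0. In day 4 myotubes against ESC they went from 2893 to 2971.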

Additional observations from a re-analysis of the deposited data

How the results depend on the processing

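The count of called members moved by more than 1.5 times under these alternatives. In myoblasts against ESC (1 called) it was 0 with all 9 groups in a fit, 2 with the length classes of 200 to under 800 bp and 800 to under 2000 bp fitted apart (an alternative chosen after seeing the data), and 0 to 2 when each library was left out. In day 4 myotubes against ESC (0) it was 0 to 1 with each library left out. In muscle against ESC (2) it was 1 with all groups in a fit and 1 to 3 with each library left out. In muscle against myoblasts (3) it was 1 with library totals, 1 with all groups, 0 with a replicate block by number (edgeR adjusted p = 0.0659 for Erbb3, 0.0567 for Mbp and 0.0556 for Pmp22), and 0 to 3 with each library left out; muscle samples and cultures share only a number here, and their same-number correlations were -0.285, 0.159 and -0.411. In muscle against day 4 myotubes (0) DESeq2 called 1, and in myoblasts against passage 0 (0) the replicate block by culture called 1, Erbb3. The block changed no other call of a member. The causes were not tested.

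The log2 change of Pmp22 in muscle against ESC, -0.01 in the report, changed sign with DESeq2 (0.13), with DESeq2 size factors in edgeR (0.13), with all groups in a fit (0.037), with the CGR8 libraries apart (0.13) and with length classes fitted apart (0.33), and ran from -0.20 to 0.31 with each library left out. With length classes apart, the Mbp coding exon had 0.17 in muscle against ESC and the B4 fragment -1.31 (edgeR adjusted p = 0.00484). TMM factors moved 8 group means of 2 or 3 libraries by more than their SD and 8 levels of the fresh libraries, 1 library each with no spread to set them against, beyond their counting interval; reads under 2000 bp as denominator moved 2 such levels, both of the uninjured library, and no group mean by more than its SD. No group had the 4 libraries needed to look for single outlying values, and the fresh and passage 0 groups, with 1 and 2 libraries, limit what can be said of them.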
